A study of Mus musculus with 8 samples.

Results

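The peaks of HA-tagged PPARb in differentiated mouse oligodendrocytes were the 30037 intervals on chromosomes 1 to 19, X and Y that the authors called from the HA library over its input, out of 109670 peaks in the 6 peak lists used here. All peaks of that list on these chromosomes were taken and ranked by height, which is the authors' tag count per 10000000 tags of the library. Neural stem cells of the FvB/C57BL6 hybrid strain that expressed ectopic PPARb with an HA tag were differentiated at passage 7 in Neurobasal medium with B-27, GlutaMAX-I, IGF-1 and the thyroid hormone T3. Chromatin of these cells was precipitated with antibodies against HA, PPARb, Qki-5 or RNA polymerase II (Pol II), and the input of the same cells had no antibody. Lists used beside them came from freshly isolated oligodendrocytes of C57BL6 mouse brain at passage 0, taken with O4 beads and precipitated for PPARb or Qki-5, with an input of their own. Every antibody and every input had 1 library. Replicate error therefore cannot be given, and no test between groups was made. The receptor that carries the tag was introduced, so HA peaks are read here as that receptor at the level it had in these cultures. No HA precipitation from cells without the tag is among the samples. HA signal that does not come from the tagged receptor therefore cannot be told apart.

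PPARb, also called PPARdelta and encoded by Ppard, is a nuclear receptor that senses fatty acids and binds DNA together with an RXR partner. The textbook site of this pair is DR1, a direct repeat of the hexamer AGGTCA with a spacer of a single base. Known PPAR targets carry fatty acids into mitochondria, oxidise them there or in peroxisomes, and store lipid in droplets. Oligodendrocytes make myelin, a membrane rich in lipid, and the HA epitope lets an antibody collect the introduced receptor without touching the other PPAR proteins.

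The promoter sequences shown here belong to genes whose promoter window was overlapped by one of the 100 tallest HA peaks and held a stretch close to DR1. They come from RefSeq for the build GRCm38.p6, the same build as mm10, run from 250 bases before to 50 bases after the listed start, and read 5′ to 3′ in the direction of the gene. Capitals mark the 13 bases nearest to DR1 on either strand, taken as AGGTCA, any base and AGGTCA again, so that 12 letters are compared. Etfb (chr7:43443822-43444121, plus strand) and Mlycd (chr8:119394644-119394943, plus strand) differ from DR1 at 3 letters. Etfa (chr9:55512194-55512493, minus strand), Aldh9a1 (chr1:167349741-167350040, plus strand) and Hspe1 (chr1:55087898-55088197, plus strand) differ at 2 letters. In Mlycd the marked bases lie 14 bp from the centre of the HA peak, in Aldh9a1 17 bp and in Etfa 37 bp. In Etfb the distance is 71 bp and in Hspe1 88 bp. Under the 100 tallest peaks 14 windows differ from DR1 at 3 letters or fewer, so those shown are a selection. In the windows not shown the distance ran from 24 bp in Nadk to 381 bp in Ap1g1, with 128 bp in Lpcat3.
Etfb: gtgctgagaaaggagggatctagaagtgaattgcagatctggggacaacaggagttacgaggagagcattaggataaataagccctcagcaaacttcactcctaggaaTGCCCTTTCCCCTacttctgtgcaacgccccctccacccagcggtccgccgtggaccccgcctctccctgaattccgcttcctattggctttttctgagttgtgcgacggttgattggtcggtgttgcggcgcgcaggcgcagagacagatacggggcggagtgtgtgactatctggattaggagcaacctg
Mlycd: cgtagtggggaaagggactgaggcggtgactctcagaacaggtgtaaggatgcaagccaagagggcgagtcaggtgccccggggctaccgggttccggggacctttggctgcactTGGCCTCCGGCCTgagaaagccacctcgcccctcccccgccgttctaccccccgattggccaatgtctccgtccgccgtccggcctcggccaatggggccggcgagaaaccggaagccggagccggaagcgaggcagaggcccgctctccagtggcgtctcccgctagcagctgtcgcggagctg
Etfa: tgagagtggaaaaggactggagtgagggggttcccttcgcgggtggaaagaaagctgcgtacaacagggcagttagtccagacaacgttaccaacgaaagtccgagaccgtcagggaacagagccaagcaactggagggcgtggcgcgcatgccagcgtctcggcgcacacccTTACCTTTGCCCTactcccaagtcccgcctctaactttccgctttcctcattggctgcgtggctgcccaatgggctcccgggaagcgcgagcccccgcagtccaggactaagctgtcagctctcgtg
Aldh9a1: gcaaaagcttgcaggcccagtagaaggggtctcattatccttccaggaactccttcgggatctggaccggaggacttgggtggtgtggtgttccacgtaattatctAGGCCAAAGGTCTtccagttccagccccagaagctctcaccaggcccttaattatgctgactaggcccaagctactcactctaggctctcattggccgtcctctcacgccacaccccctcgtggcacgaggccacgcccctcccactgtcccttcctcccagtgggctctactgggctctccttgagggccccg
Hspe1: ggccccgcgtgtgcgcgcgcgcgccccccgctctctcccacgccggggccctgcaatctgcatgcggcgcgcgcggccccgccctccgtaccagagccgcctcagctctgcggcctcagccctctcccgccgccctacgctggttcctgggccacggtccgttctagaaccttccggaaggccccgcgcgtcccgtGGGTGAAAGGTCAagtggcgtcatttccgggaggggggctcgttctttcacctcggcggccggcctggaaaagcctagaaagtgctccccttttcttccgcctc

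The marked stretches are matches of letters and not measured sites. Etfb and Etfa encode the electron transfer flavoprotein, which takes electrons from the acyl-CoA dehydrogenases, and Mlycd encodes malonyl-CoA decarboxylase, which removes the inhibitor of fatty acid entry into mitochondria. Aldh9a1 is an aldehyde dehydrogenase of carnitine synthesis, and Hspe1 is a mitochondrial chaperonin whose promoter it shares with Hspd1 on the opposite strand. The HA peaks over these promoters stood at 114.1 for Etfb, 93.5 for Mlycd, 88.7 for Etfa, 55.4 for Aldh9a1 and 55.4 for Hspe1.

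The HA library held 12624236 tags, the fewest of the 6 antibody libraries, which reached 24880851. Peaks took 583386 of the HA tags, or 4.62%. Heights ran from 6.34 to 122.8 with a median of 13.5, and the 99th percentile was 38.8. A height of 0.792 is 1 tag, so a peak of median height rests on few tags and neighbouring ranks are not told apart. Input tags at the peaks, scaled by the caller to the HA depth, had a median of 1.3 and were at the lowest listed value of 0.3 at 3669 peaks (12.2%). The median fold over input was 14.3, and it rests on a small input count at nearly every peak.

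The markers used to check the cell label gave a mixed picture. A gene is said to have a peak in reach where a peak centre lies within its span or 5 kb on either side. An HA peak was in reach of 6 of 10 oligodendrocyte markers, and a Pol II peak of 3, which were Mbp, Cnp and Myrf. Neural stem cell markers had HA at 5 of 5 and Pol II at 5 of 5, astrocyte markers 6 of 6 and 5 of 6, neuron markers 5 of 5 and 4 of 5, and precursor markers 4 of 4 and 2 of 4. In a longer list of 15 neuron markers 10 had an HA peak, so the short set does not stand for all of them. Microglia markers had HA at 1 of 5 and Pol II at 0 of 5, and endothelial and mural markers 1 of 6 and 1 of 6. Over all protein-coding genes the shares were 60.6% for HA and 47.5% for Pol II. Pol II was thus listed at 3 of 10 oligodendrocyte markers and at most stem cell, astrocyte and neuron markers, against 47.5% of all genes. Sets this small give no verdict on the cell label. One bulk library cannot tell a site bound strongly in few cells from one bound weakly in many.

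Several of the tallest sites lay at genes that bring fatty acids into mitochondria and oxidise them. Positions are on mm10. Rank 1 was inside Cpt1a (chr19:3325394-3325594), which encodes the gate enzyme for entry of long-chain fatty acids into mitochondria. HA reached 122.8 there (95% exact Poisson interval 104 to 144, counting error only, as for all intervals below), against a scaled input of 1.3 tags, and the peak centre lay 2193 bp after the listed start. Rank 3 (chr7:43443907-43444107), at 114.1 (96.2 to 134), lay 65 bp before the start of Etfb and also within Cldnd2. Rank 4 (chr18:74779013-74779213) lay 99 bp from the nearer end of Acaa2, the thiolase of the last step of mitochondrial beta-oxidation, at 103.8 (86.8 to 123). Etfa (chr9:55512251-55512451) followed at rank 10 with 88.7 (73.1 to 107) and Acadl (chr1:66862789-66862989), the long-chain acyl-CoA dehydrogenase, at rank 11 with 87.1 (71.6 to 105). The Poisson intervals of these 5 sites overlap in part, so their order is not fixed by the counts. These are the fatty acid oxidation genes of the 20 tallest peaks: 5 of the 30 genes on that list had such a peak within their span plus 5 kb, against 0.0868% of all protein-coding genes. For the 100 tallest peaks it was 7 of 30, against 0.462% of all genes. The list was chosen with earlier results of these data known, so these counts are descriptions and not a test.

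Genes of other lipid steps made up a further set among the 20 tallest. Angptl4, a secreted inhibitor of lipoprotein lipase, held rank 5 inside the gene (chr17:33779357-33779557) at 99 (82.4 to 118). Mlycd (chr8:119394651-119394851), at 93.5, was followed by Lpcat3 (chr6:124662902-124663102) at 88.7 (73.1 to 107), an acyltransferase that puts polyunsaturated chains into phospholipids. Agpat3, an acyltransferase of phosphatidic acid synthesis, reached 76.8 inside the gene, 28832 bp from its nearer end. Fitm2, an endoplasmic reticulum protein of lipid droplet formation, closed the 20 at 73.7 (59.5 to 90.2). The next peak, rank 21, lay 2571 bp before the start of Txnip, an inhibitor of glucose uptake, at 72.9 (58.7 to 89.4). The step at this rank limit is therefore 1 tag.

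Transcription and signalling genes were the other part of the top. Klf10, a growth-arrest zinc finger factor, had rank 2 (chr15:38299202-38299402) at 121.2 (103 to 142), inside the gene, 1409 bp from its nearer end and against a scaled input of 0.7. Its relative Klf11 had rank 12 (chr12:24651130-24651330) at 85.5 (70.2 to 103), 141 bp before the start. Mlst8, a subunit of the mTOR complexes, stood at 93.5 just after its start. Pdgfra, the growth factor receptor that marks oligodendrocyte precursors, had rank 16 (chr5:75156297-75156497) at 80.8 (65.9 to 98.1), 4146 bp into the gene. Crtc2, a coactivator of CREB, shared the peak of rank 17 with the zinc transporter gene Slc39a1 at 78.4, and Nup85 of the nuclear pore stood at 74.5.

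**Figure D1:**
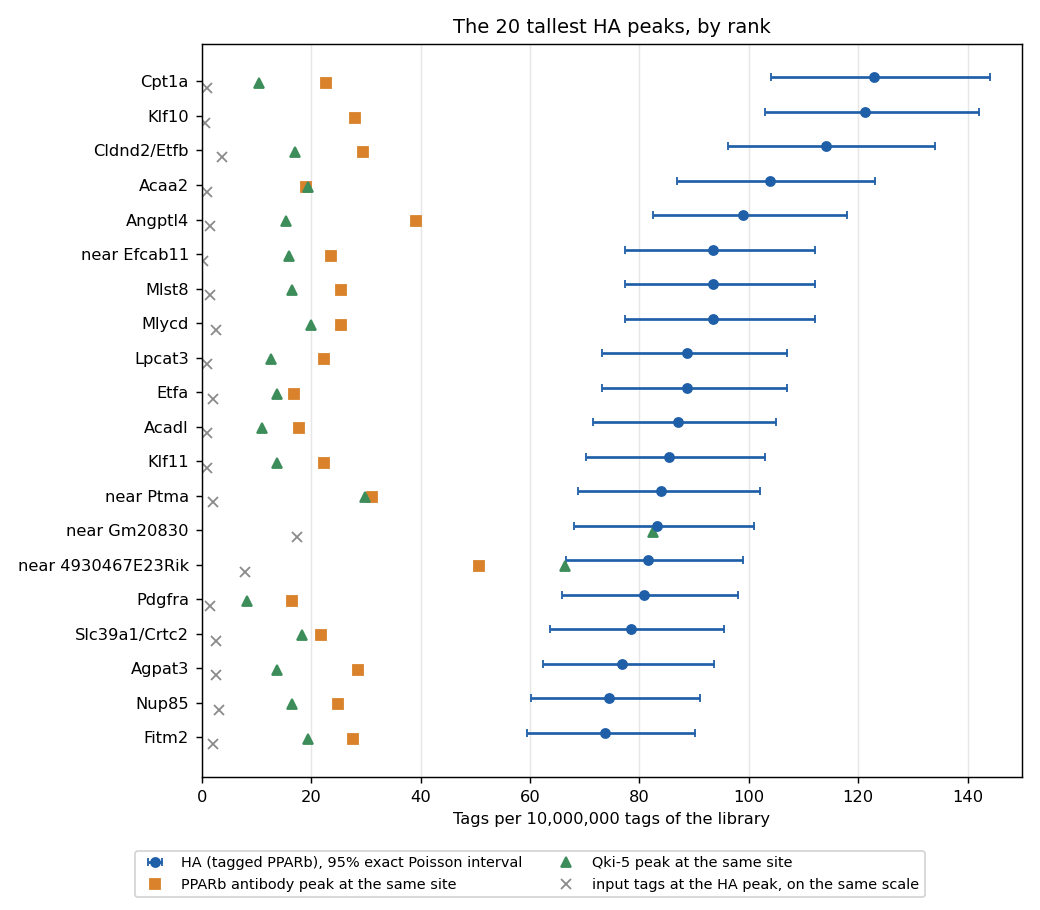
Heights of the 20 tallest HA peaks in tags per 10000000 tags, from rank 1 at the top to rank 20, with 95% exact Poisson intervals; squares and triangles are PPARb antibody and Qki-5 peaks that overlap the site, and crosses are the input tags on the same scale. HA heights run from 122.8 at Cpt1a to 73.7 at Fitm2, and the input crosses sit close to 0 except near Gm20830 and 4930467E23Rik.

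In the other libraries of the same cells, a PPARb antibody peak was listed at 19 of these 20 sites, with heights of 16.5 to 50.7 and a median of 24.9. A Qki-5 peak was also listed at 19, at 8.3 to 82.4, and a Pol II peak at 10, at 6.03 to 36.6. Over all HA peaks the shares with such a peak were 64.6% for PPARb, 67% for Qki-5 and 33.3% for Pol II. These lists share the input library with the HA list and each antibody has its own efficiency, so the values stand side by side only. At Cpt1a HA had 122.8, PPARb 22.7, Qki-5 10.5 and Pol II 7.64. At Klf10 HA had 121.2 and PPARb 28, and no Qki-5 or Pol II peak was listed. Angptl4 had 99 for HA, 39.2 for PPARb, 15.5 for Qki-5 and none for Pol II. In isolated cells, which hold no introduced receptor, PPARb peaks were listed at 10 of the 20, against 3.34% of all HA peaks. Heights in isolated cells ran from 7.07 at Lpcat3 to 19 at Angptl4. Acadl had 13.1 there, Klf11 12, Etfa 10.9 and Klf10 9.79, while none was listed at Cpt1a, Etfb or Acaa2.

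Of the 20 tallest sites 4 lay outside protein-coding genes and their flanks. The site of rank 6 (chr12:99627996-99628196) reached 93.5 over the lowest listed input of 0.3, lay 64099 bp from Efcab11 and was 122 bp from the long noncoding RNA gene 1700064M15Rik. Rank 13, at 84.0, lay 39066 bp before the start of Ptma. At the other pair the input was high: the site on chromosome Y had 83.2 against 22 scaled input tags, 4.78-fold, and a site of chromosome 8, 93 bp from the pseudogene Gm10060, had 81.6 at 10.3-fold over input. Qki-5 reached 82.4 and 66.4 at these sites, the highest Qki-5 values among the 20. Across the whole list 3 peaks had a scaled input of 10 or more, the third being rank 22 inside 4930467E23Rik at 71.3 against 14.6. Without the pair, 18 sites remain, 11 within 1000 bp of a gene end, 5 inside a gene and 2 outside, and a PPARb antibody peak was listed at all 18.

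Over the whole list, 10279 HA peaks (34.2%, 95% exact interval 33.7 to 34.8) had their centre no more than 1000 bp from either end of a coding gene, a place named the boundary here. A further 11524 (38.4%) lay inside a gene and 8234 (27.4%) outside. Exons and introns were not told apart, since the annotation used gives gene spans only. Boundary peaks were taller, with a median height of 16.6 (quartiles 12.7 and 21.4), against 12.7 (9.51 and 17.4) inside genes and 11.9 (8.71 and 16.6) outside. Of the boundary peaks 7735 lay only at the start of a gene span, by its strand, and 380 only at a far end. Another 341 lay at both and 1823 at genes with no listed strand. Listed starts inside a gene span were not counted as boundaries. In all 9290 HA peaks lay within 1000 bp of a listed start. The boundary share of the HA list lies near the 33.5% of the PPARb list and the 32.8% of the Qki-5 list of the same cells. Pol II had 56.2% there, and the lists of isolated cells 65.8% for PPARb and 60.5% for Qki-5.

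Height and place did not run in parallel at the top of the list. Among ranks 1 to 100 the boundary share was 41% (31.3 to 51.3), and among ranks 101 to 1000 it was 37.7% (34.5 to 40.9). It was higher in the classes beneath, at 49.2% (47.6 to 50.7) for ranks 1001 to 5000 and 45.3% (44.3 to 46.2) for ranks 5001 to 15000. The shortest peaks, ranks 15001 to 30037 with heights of 6.34 to 13.5, had 22.7% (22 to 23.3). Peaks outside genes made up 27%, 25.9%, 19.1%, 21.2% and 33.8% of the classes from the tallest to the shortest. So 59 of the 100 tallest peaks lay away from a boundary, 32 inside a gene and 27 outside.

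The share of HA peaks with a PPARb peak of isolated cells was smaller in each class down the ranking. It was 22% (14.3 to 31.4) for ranks 1 to 100, 13.6% for 101 to 1000, 8.53% for 1001 to 5000, 4.14% for 5001 to 15000 and 0.698% for the rest. Qki-5 peaks of isolated cells lay at 35% (25.7 to 45.2) of ranks 1 to 100 and 40.6% (37.3 to 43.8) of ranks 101 to 1000, and at 7.34% of the last class. Over whole lists, 1004 sites were shared with isolated-cell PPARb, which is 3.34% of the HA peaks and 72.2% (69.7 to 74.5) of the 1391 PPARb peaks. With Qki-5 of isolated cells 5484 were shared, 18.3% of the HA peaks and 65.5% of 8375. The isolated-cell lists are short, so a missing peak says only that none was listed at that depth.

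**Figure D2:**
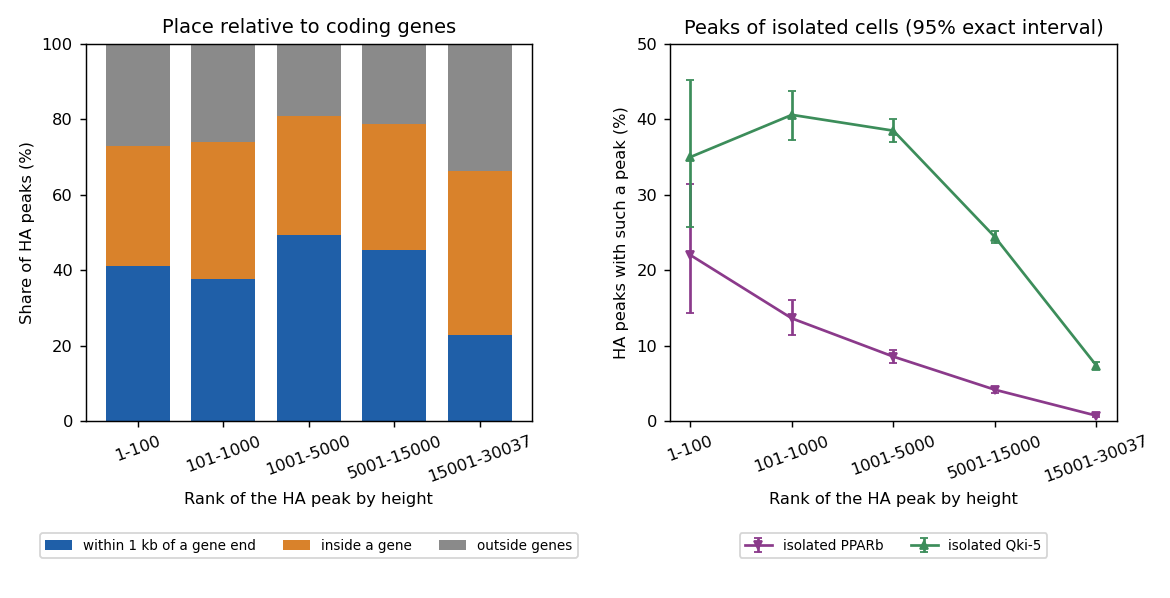
Left, the share of HA peaks (%) within 1 kb of a gene end, inside and outside protein-coding genes, by rank class of height; right, the share (%) with an overlapping PPARb or Qki-5 peak of isolated cells, with 95% exact intervals. The boundary share peaks at 49.2% in ranks 1001 to 5000, and the share with an isolated-cell PPARb peak is 22% in ranks 1 to 100 and 0.698% in the last class.

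In long genes HA peaks lay nearer to the start. Among 7948 genes of 20 kb or more with a listed strand, 8425 peaks lay inside the span, and the fifth nearest the start held 27.2% (26.2 to 28.1) of them. The parts after it held 19.8%, 18.2% and 18.1%, and the fifth at the far end held 16.7% (15.9 to 17.5). Peaks were thus found along the whole gene body, most often in the fifth at the start.

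DR1-like sequences were no more frequent in promoters with an HA peak than in those without. Promoter windows were available for 17491 genes with 21262 windows, and an HA peak overlapped 7718 of them. Only these windows were searched and not the peaks themselves, so HA peaks away from listed starts were not examined. Of all HA peaks 30.9% lay within 1000 bp of a listed start. With at most 2 mismatches on either strand, 200 of the 7718 (2.59%, 2.25 to 2.97) held a DR1-like stretch, against 3.72% (3.41 to 4.05) of windows without an HA peak and 3.31% of all windows. Under the 100 tallest peaks 4 of 36 windows did (11.1%, 3.11 to 26.1), and the Hspe1 and Hspd1 windows among them hold the same 13 bases. At most 3 mismatches gave 14 of these 36 (38.9%, 23.1 to 56.5), against 22.9% (22.3 to 23.5) of all windows. For ranks 101 to 1000 the share at 2 mismatches was 2.39%, and in the 3 classes below it lay between 2.34% and 2.75%. The matches lay a median of 136 bp from the centre of the HA peak, and 26 of 200 lay within 50 bp.

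Other motifs were chosen after these shares were seen, and most differed more between windows with and without an HA peak. The hexamer AGGTCA, which is also part of DR1, stood in 10.4% of windows with an HA peak, against 17.2% of those without and 14.7% of all. CCGGAAG, the core of many ETS sites, stood in 23.1% of windows with an HA peak, against 5.01% of those without and 11.6% of all. The NRF1 site, GCGC and TGCGC with any base between them, stood in 13.3%, against 2.45% and 6.38%. The cyclic AMP response element TGACGTCA stood in 3.78%, against 1.35% and 2.23%, and the E-box CACGTG in 10.9%, against 6.09% and 7.84%. CCAAT stood in 37.4% of windows with an HA peak, against 38.7% and 38.2%, but the share differed by rank. It was 41.7% (25.5 to 59.2, 15 of 36 windows) for ranks 1 to 100 and 24.9% (20.1 to 30.3) for ranks 101 to 1000. Further down it was 28.2% (26.1 to 30.4) for ranks 1001 to 5000 and 38.8% (37.2 to 40.4) for ranks 5001 to 15000. For ranks 15001 to 30037 it was 44.2% (42 to 46.3). All were searched on both strands with no mismatch. Base composition differed as well, with a median of 63.7% G and C and 24 CG pairs in windows with an HA peak, against 51.7% and 6 in windows without. Its part in the motif shares, those of DR1 included, was not tested.

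**Figure D3:**
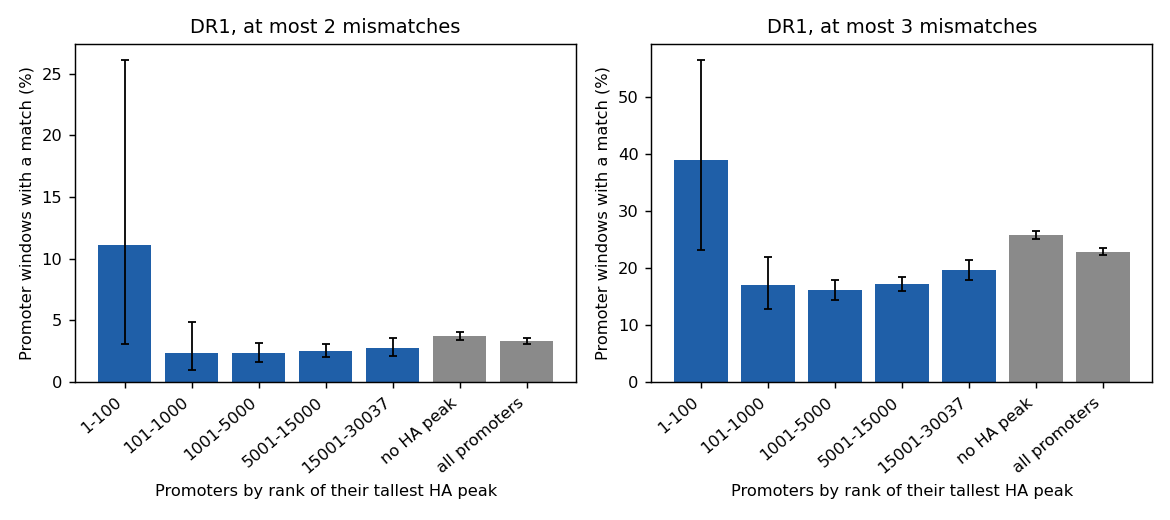
Share of promoter windows (%) with a DR1-like match at no more than 2 (left) or 3 (right) mismatches, by rank of the tallest HA peak over the window (blue), and in windows with no HA peak and all windows (grey), with 95% exact intervals. At 3 mismatches ranks 1 to 100 stand at 38.9% and all windows at 22.9%, while the other ranks lie below all windows.

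By gene, 13259 of 21883 protein-coding genes (60.6%) had at least 1 HA peak in reach, 6617 (30.2%) had several, 954 had 5 or more and 160 had 10 or more. A peak of rank 1 to 1000 was in reach of 892 genes (4.08%), and a boundary peak of 10172 (46.5%). These shares are the background for the lists below, and the median height of the tallest peak over all genes, with 0 for genes without a peak, was 11.9. Lists were chosen with earlier results of these data known, so their counts are descriptions.

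Fatty acid oxidation genes all had an HA peak in reach, 30 of 30. Of them 13 had one of rank 1 to 1000 and 25 a boundary peak, and the median of their tallest peaks was 23.4. Their median span was 27.7 kb, against 17.2 kb for all genes, and the part of span in these counts was not tested. Below the 5 tallest stood Eci2, an enoyl-CoA isomerase, at 68.1, Acads, the short-chain dehydrogenase, at 49.1, Acsl6, an acyl-CoA synthetase, at 42.8 and Etfdh, which hands electrons from the flavoprotein to ubiquinone, at 42.8. The carnitine shuttle was covered at Slc25a20 with 38.8, at the carnitine transporter Slc22a5 with 23.8 and at Cpt2 with 18.2. The dehydrogenases Acadm and Acadvl stood at 34.1 and 31.7, and the trifunctional protein genes Hadha and Hadhb at 21.4. Low in the list were Cpt1b, the muscle form of the entry enzyme, and its brain relative Cpt1c, each at 11.1. Acsl4 stood at 6.34, the lowest height of the HA list.

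The list of known PPAR targets was split. Of 35 genes 26 had a peak in reach, 10 had one of rank 1 to 1000, 17 had a boundary peak and the median was 16.6. Besides Cpt1a, Acaa2, Angptl4 and Acadl, Ucp3, a mitochondrial carrier, reached 26.1. Plin2, a lipid droplet coat protein, stood at 12.7, and Fabp3, a fatty acid binding protein, at 8.71. No peak was in reach of Pdk4, Ehhadh, Fabp4, Cyp4a14, Fgf21, Creb3l3, Cyp4a10, Acaa1b or Fabp1. Pdk4 is a kinase that limits pyruvate oxidation, and Fabp1, Cyp4a10 and Cyp4a14 are best known from liver.

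Other lipid lists had fewer of the tallest peaks. Peroxisomal lipid genes had a peak at 27 of 33 and one of rank 1 to 1000 at 5. Among them were the sterol carrier gene Scp2 at 38.8 and the peroxisome assembly genes Pex13 at 37.2 and Pex16 at 34.1. Lipid droplet and lipolysis genes had 19 of 21 and 4, with Fitm2 and Angptl4 followed by Mgll, the monoglyceride lipase, at 39.6 over 6 peaks and Abhd5, a cofactor of triglyceride lipase, at 30.9. Fatty acid synthesis and desaturation genes had 24 of 25 and 3, with the desaturase Scd4 at 52.3, the lipogenic factor Srebf1 at 34.1, malic enzyme Me1 at 32.5 and fatty acid synthase Fasn at 29.3. Cholesterol synthesis genes had 24 of 25, and 0 of 25 with a peak of rank 1 to 1000, a share that is 4.08% over all genes. Their tallest were Scap, the sterol-sensing partner of SREBP, at 25.3, the sterol reductase Tm7sf2 at 24.6, the sterol desaturase Sc5d at 23.8 and mevalonate kinase Mvk at 21.4. Citric acid cycle genes had 24 of 24 and 1, with Dlat at 34.9, pyruvate carboxylase Pcx at 27.7, Sdhb at 26.9 and Idh2 at 24.6. The medians of these lists were 18.2, 15.8, 15.8, 16.6 and 17.4 in the order given.

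**Figure D4:**
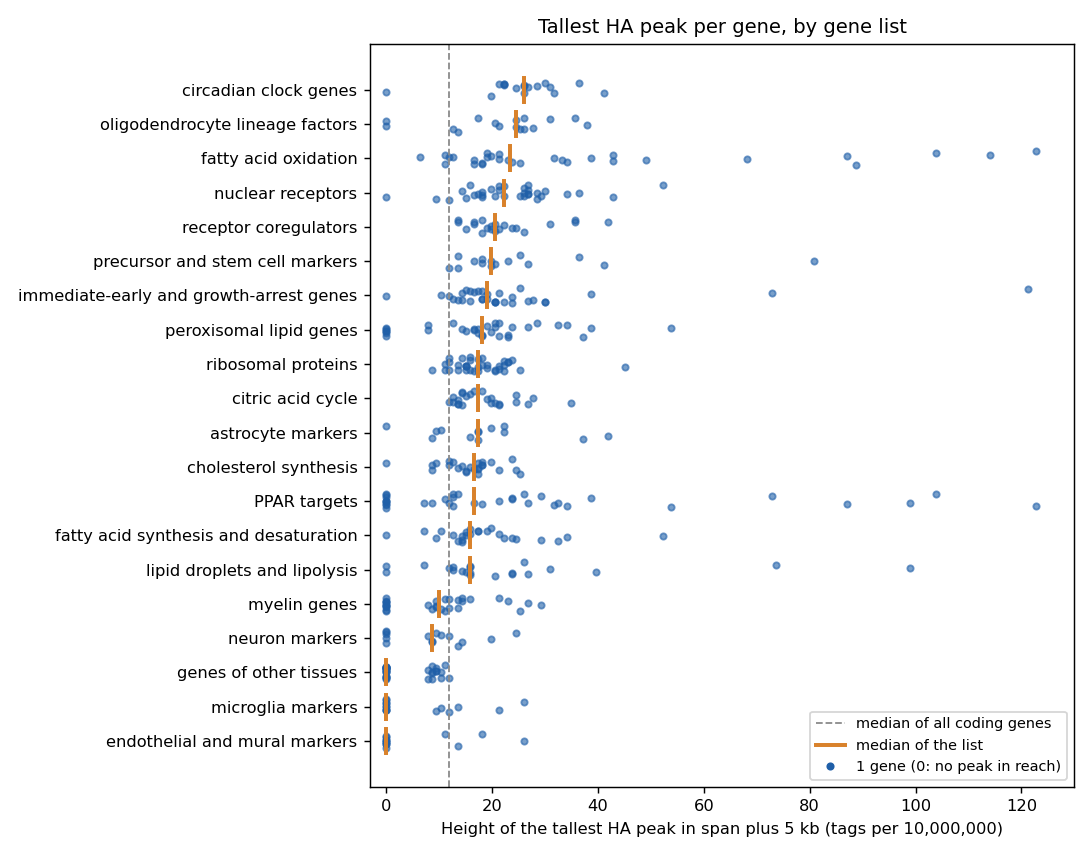
Height of the tallest HA peak within the span plus 5 kb of each gene, in tags per 10000000, by gene list, with 0 for genes without a peak; the orange bar is the median of the list and the dashed line the median of all protein-coding genes, 11.9. Points past 60 come from fatty acid oxidation, PPAR target, lipid droplet, precursor and immediate-early genes, and the medians of microglia, endothelial and other-tissue genes lie at 0.

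The genes of the receptor and its partners carried several peaks of moderate height. Ppard itself had 4, at 18.2, 18.2, 15.1 and 10.3, one of them 10 bp from the start; tags from the introduced Ppard sequence were not separated. Ppara, the PPAR of liver and heart, had 4 with the tallest at 26.1, 577 bp inside the nearer end of the gene, and Pparg, the PPAR of fat cells, had 4 with the tallest at 17.4 in the flank beyond the gene. Among the RXR partners, Rxra had 5 peaks at 26.9, 26.1, 17.4, 16.6 and 7.13, Rxrb had 4 up to 29.3 and Rxrg had 1 at 9.51. Across 33 nuclear receptor genes 32 had a peak, 28 had several and 4 had one of rank 1 to 1000. The tallest were at the orphan receptors Nr2c1, 52.3, Nr2f2, 36.4, and Nr2c2, 34.1, and at the retinoic acid receptor Rara, 42.8 over 8 peaks. The median of 22.2 goes with a median span of 47.1 kb.

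All 21 receptor coregulator genes had a peak and 20 had several, with a median height of 20.6. The mediator subunit Med1 and the corepressor subunit Tbl1xr1 stood at 35.6, Pprc1 at 30.9, and Ppargc1a, the coactivator of mitochondrial genes, at 22.2 over 13 peaks. These genes are long, with a median span of 86.4 kb. Circadian clock genes had 16 of 17 with a peak and the highest median of the lists, 26.1, with Clock at 41.2, Cry2 at 36.4, Nfil3 at 31.7 and Arntl at 30.9 over 10 peaks. Immediate-early and growth-arrest genes had 31 of 32 and a median of 19. Klf10 led them, with Txnip at 72.9 and 30.9, Myc at 38.8, Fosl2 at 30.1 and Klf15 at 30.1. Ribosomal protein genes had 36 of 36, a boundary peak at 35 and a median of 17.4, with Rps19 at 45.2 ahead of Rpl13 at 25.3, Rpl30 at 23.8 and Rpl11 at 23.0.

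Myelin genes had HA peaks near the background share, at 20 of 30, with a median of 9.91. A peak of rank 1 to 1000 was in reach of 0 of 30, against 4.08% of all genes. The tallest were Nfasc, which builds axon contacts, at 29.3 over 11 peaks, Pmp22 at 26.9, Tmem88b at 25.3 and Mbp, myelin basic protein, at 23.0 over 5 peaks. No peak was in reach of Mog, Mag or Mobp, all genes of myelin proteins. Factors of the oligodendrocyte lineage had 14 of 16 and a median of 24.6, with Zfp24 at 38.0, Olig1 at 35.6, Yy1 at 30.9 and Olig2 at 27.7, the last 2859 bp before the start. Sox10, the factor that drives myelin genes, had a single peak of 12.7 beyond its end. Precursor and stem cell markers had 15 of 15, all with several peaks, and a median of 19.8, with Pdgfra at 80.8, Msi1 at 41.2, Fabp7 at 36.4 and Hes1 at 26.9.

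Lists of other cell types and tissues differed in their share of genes with an HA peak. Astrocyte markers had 12 of 13 with a median of 17.4, Gfap at 42.0, the glutamate transporters Slc1a2 at 37.2 and Slc1a3 at 22.2, and Aldoc at 22.2. Neuron markers had 10 of 15 with a median of 8.71, led by Map2 at 24.6, Slc17a7 at 19.8, Syt1 at 14.3 and Rbfox3 at 13.5. For microglia it was 6 of 15, with Cd68 at 26.1, Ptprc at 13.5 and Tyrobp at 11.9. Endothelial and mural markers had 4 of 13, at Pecam1 with 26.1, Ocln with 18.2, Cspg4 with 13.5 and Vwf with 11.1. Genes of other tissues had 13 of 30, none above 11.9, with Pax8 at 11.9, Apoa1 at 11.1, Ttr at 10.3 and Alb at 10.3. The last 3 lists fall below the background of 60.6%. Their median spans were 6.67, 46.2 and 10.3 kb in the order given, against 17.2 kb for all genes. The part of span in these shares was not tested.

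Genes with more HA peaks had longer median spans. The 6642 genes with 1 peak had a median span of 19.2 kb and a median tallest height of 15.8, and the 3574 with 2, the most common number among several-peak genes, had 22.9 kb and 19. It was 35.1 kb for the 1453 genes with 3 peaks, 64.5 kb for the 636 with 4, 135 kb for the 794 with 5 to 9, and 312 kb with a tallest height of 26.1 for the 160 with 10 or more. Across all genes the number of peaks and the span had a Spearman rho of 0.44, given as a description over 21883 genes that are not replicates. The most peaks were at Nfia, a glial transcription factor, at Gse1 and at Nav2, with 29 each over 541, 353 and 651 kb. Camta1 had 26, the RNA-binding protein gene Msi2 had 25, Arhgap26 had 25 and Syn3, a synapsin, had 24. Auts2 and Npas3 had 20 each. Gse1 had 0.799 peaks per 10 kb, while Auts2 spans 1106 kb with 0.179 per 10 kb. Of the 25 peaks of Arhgap26, 10 were also in reach of another gene.

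The genes with the most peaks were not those with the tallest. The tallest peak stood at 40.4 in Nfia, 38.8 in Syn3, 36.4 in Gse1, 30.1 in Nav2 and 26.1 in Camta1. Of the genes at the tallest sites, Klf10, Etfb, Acaa2, Angptl4, Acadl, Klf11, Nup85 and Fitm2 had a single HA peak in reach. Beyond that reach, a peak of rank 79 at 49.9 lay 8886 bp before the start of Klf11. Cpt1a had 3, where the other pair stood at 11.1 each, and Etfa had a second peak at 7.92. Lpcat3 carried further peaks at 23.8 and 15.8, and Agpat3 had 4 in all. The densest genes with at least 4 peaks were short ones, among them Slc35g3 with 4.18 peaks per 10 kb, H3c10 with 3.81, Gpd1, the glycerol phosphate dehydrogenase of triglyceride synthesis, with 6 peaks or 3.44, and Ctxn1 with 3.44. Gadd45b, a growth-arrest gene, had 4 peaks, all in its flanks and none shared with another gene. Hoxa2, Hoxa5, Hoxa6, Sftpc and Ager completed these 10. Except at Gadd45b, all peaks of the 10 genes, those of Gpd1 included, were also in reach of another gene. All peaks lay in the flanks at Slc35g3, H3c10, Hoxa2, Hoxa6, Sftpc and Ager as well. The tallest peak of each of the 10 stood at 14.3 to 30.9.

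**Figure D5:**
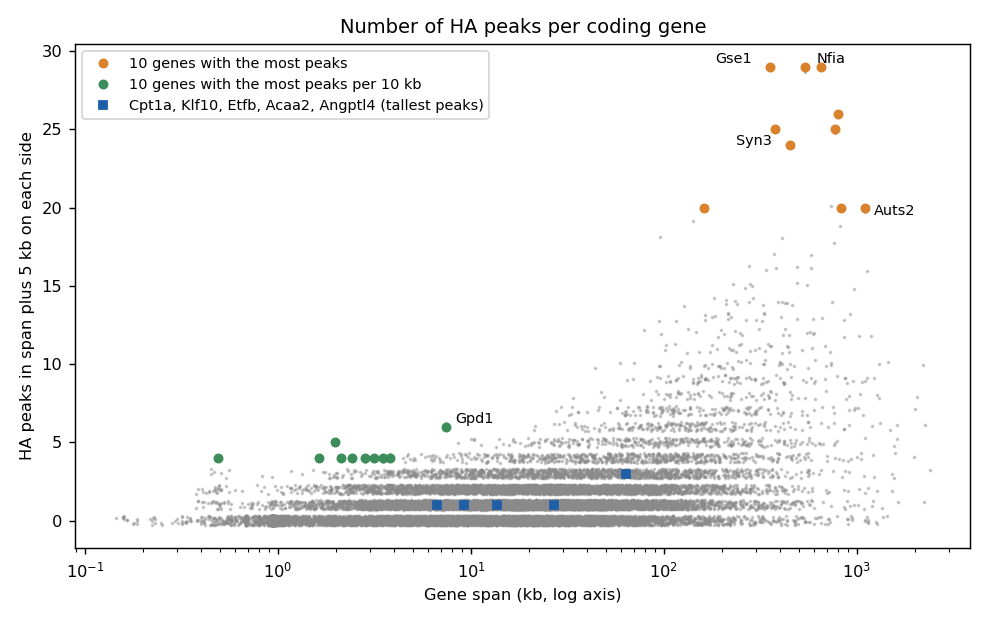
Number of HA peaks within the span plus 5 kb of each protein-coding gene against its span in kb (log axis), with points spread slightly in height so that they can be seen. The genes with the most peaks are long, such as Nfia with 541 kb and Auts2 with 1106 kb, while Cpt1a, Klf10, Etfb, Acaa2 and Angptl4, with the tallest peaks, have 1 to 3.

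Peaks were also spaced closely in places. The median distance to the nearest other HA peak was 11.5 kb, 4050 peaks (13.5%) had a neighbour within 1000 bp and 1816 (6.05%) had none within 100000 bp. In all 7194 peaks (24%) were in reach of no protein-coding gene, 18684 (62.2%) of 1 and 4159 (13.8%) of several. The 19 autosomes held 953 to 2412 peaks each, or 0.97 to 1.87 per protein-coding gene, with median heights of 12.7 to 14.3. Chromosome X held 496, or 0.513 per gene, with a median of 9.51, and chromosome Y held 9. The lower count on X goes with a lower height, and how many X copies the cells had is not stated in the labels.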

How the data were processed

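The authors' peak lists were used as deposited. HOMER 4.10.1, SAMtools 1.8, Bowtie 1.2.2, Trim Galore 0.4.4 and bcl2fastq 2.19.1.403 and the build mm10 are named in the submitters' processing notes, with no role or order. Per the file headers, HOMER findPeaks in factor style called 200 bp peaks at least 400 bp apart at a false discovery rate of 0.001, with limits of 4-fold both over input and over the local 10000 bp and of 0.0001 for the Poisson p against input, after removal of duplicate tags.

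The deposited normalized tag count is a signal per 10000000 tags, called height. The total tags of a peak are a raw count in the HA list, per the file headers, and the control tags are a signal that the authors' caller scaled to the HA depth. The fold over input and over the local background is a ratio made by the authors' caller. The deposited p-value, the focus ratio (a fraction) and the findPeaks score were not used to rank.

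Peaks on chromosomes 1 to 19, X and Y were ranked by height, ties by fold over input and position. Peaks were joined by centre to 21883 protein-coding genes of the RefSeq table of GRCm38.p6, which gives spans without exons; strand and starts came from RefSeq promoter windows of 17491 genes. Peaks of other lists counted as at the same site from 1 bp of overlap. Intervals are 95% exact Poisson for heights and 95% exact Clopper-Pearson for shares, and cover counting error only. Each height belongs to 1 library of 12624236 tags, so 1 tag is 0.792. The code was tested on simulated peaks. Python 3.11.15, numpy 2.4.6, pandas 2.3.3, SciPy 1.17.1 and matplotlib 3.10.9 were used.

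Named are the genes of the 20 tallest peaks, the 10 genes with the most and the 10 with the densest peaks, up to 4 members with the tallest peak in each of 20 gene lists, and a set of PPAR, RXR, myelin and lineage genes in any case. Of 480 list entries 479 matched the table; the entry Bmal1 is in it as Arntl. Some further list members are named as the tallest or lowest of a list, or for having no peak, after their values were seen. The members and lists were chosen with earlier results of these data known. Alternatives were other boundary windows, gene reaches, folds, rankings, overlaps and mismatch limits. Input libraries entered only through the caller's values. Some genes that the rule names are not reported here.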

Additional observations from a re-analysis of the deposited data

Results flagged for a closer look

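The tallest peak of the HA list lay outside the chromosomes used, on an unplaced scaffold named JH584304 at 59551 to 59751. Its height was 159.2 (95% exact Poisson interval 138 to 183) from 201 HA tags, against 45.2 scaled input tags, a fold of 4.44 that is close to the 4-fold the caller required. It stands apart as a signal in data that no comparison above used. The other 4 of the 5 peaks outside these chromosomes had heights of 7.92 to 16.6.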

How the results depend on the processing

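The share of HA peaks at a gene boundary, 34.2%, was 28.7% with a 500 bp window, 39% with 2000 bp, 36.5% among peaks at 8-fold over input or more and 39.5% with all genes of the annotation, noncoding ones included. The number of genes with several peaks, 6617, was 3739 with the gene span alone, 3337 with the peaks above the median height, 8242 with 10 kb flanks and 5168 at 8-fold. The DR1 share of HA promoters, 2.59%, was 0.337% at 1 mismatch, 17.8% at 3 and 2.41% for the top quintile of height. Of the 100 tallest peaks 59 lay outside the boundary window, and other rankings, the 2000 bp window or leaving out the top 1% of input gave 54 to 63. A PPARb antibody peak, called on the same input library, was listed at 95 of the 100, against 64.6% of all HA peaks. It was listed at 90 with 100 bp of overlap or ranking by fold over input. Ranking by fold changed which sites lead: 12 of the 100 tallest are also among the 100 highest by fold, a ratio that rests on few input tags. No paired analysis was possible because each antibody had 1 library. Library depth, 12624236 tags, limits the order of neighbouring ranks and what a missing peak says.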
